A study of Mus musculus with 2 samples.

Results

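The genes that take up, recycle and break down arginine or build polyamines were followed through 2 maps of PHLPP1 on chromatin. The 9 genes were Arg1, Arg2, Nos2, Slc7a2, Ass1, Asl, Odc1, Srm and Oat. They were chosen by name from 21887 protein-coding genes, and every region listed over a gene body or within 20 kb of either side was taken. That gave 49 of the 165968 regions of the untreated library and 88 of the 226476 regions of the IL-4 library. PHLPP1 is a phosphatase best known for removing phosphate from AKT. The cells were primary alveolar macrophages washed from the lungs of wild-type mice, either left untreated or given 20 ng/ml of the cytokine interleukin-4 (IL-4) during 4 h. CUT&Tag was used, in which an antibody, here against PHLPP1, directs a transposase to cut and tag the DNA around its target. Each group held 1 library, so there were no replicates, no test of the treatment was possible, and the values below describe these 2 libraries. A library with a control antibody was not analysed here, and background of the method cannot be told apart from PHLPP1 signal.

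Arginine sits at a branch point of macrophage metabolism. Arginase, encoded by Arg1 in the cytosol and Arg2 in mitochondria, splits it to urea and ornithine, while inducible nitric oxide synthase, encoded by Nos2, turns it to nitric oxide and citrulline. Slc7a2 encodes the cationic amino acid transporter CAT2, which brings arginine into the cell. Ass1 and Asl encode the enzymes that rebuild arginine from citrulline. Ornithine feeds the polyamines through ornithine decarboxylase (Odc1) and spermidine synthase (Srm), or proline through ornithine aminotransferase (Oat). IL-4 is a classical inducer of Arg1 through the transcription factor STAT6, and Nos2 is a classical target of interferon and bacterial products.

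All 9 genes had regions in both libraries, as did 91.5% and 92.8% of protein-coding genes, and most had one over the start. Without IL-4 a region lay over the start itself at 7 of the 9, and with IL-4 at 8. Among 17492 protein-coding genes of known orientation the shares were 35.4% and 45.0%, and 34.2% had one in both. Nos2 was the gene with a region over its start in the IL-4 library alone, which 10.8% of oriented genes had. Within 1 kb of the start the numbers were 7 and 9 genes, against 51.7% and 62.9% of all oriented genes, and 48.9% had one in both. The 2 genes with such a region in the IL-4 library alone were Arg1 and Nos2, and 14.0% of oriented genes were of that kind. Within 5 kb of the start all 9 genes had a region in each library, and the shares at that limit were not counted. Asl, whose orientation was not taken from any table, is counted here by either of its ends, while the shares are for starts alone.

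The RefSeq promoter table (build GRCm38.p6, the assembly behind mm10) matched 3 of the 9 genes, Odc1, Ass1 and Oat. Their 250 bases before the annotated start are shown because regions of both libraries lay over them. In the IL-4 library the region covered all 250 bases at each gene. In the untreated library it covered 250 at Odc1, 218 at Ass1 and 195 at Oat. Capitals mark matches, on either strand, to any of 9 short patterns: 2 STAT patterns (TTCNNNGAA and a STAT6-type one with a wider spacer), the PU.1 pattern GAGGAAGT, the C/EBP pattern TTGCNNCAA, the AP-1 pattern TGANTCA, the E-box CACGTG, the FOXO pattern GTAAACA, the GC box GGGCGGG and the TATA pattern TATAAA. Each sequence reads 5′ to 3′ on the gene's own strand.
Odc1, plus strand, chr12:17544623-17544872: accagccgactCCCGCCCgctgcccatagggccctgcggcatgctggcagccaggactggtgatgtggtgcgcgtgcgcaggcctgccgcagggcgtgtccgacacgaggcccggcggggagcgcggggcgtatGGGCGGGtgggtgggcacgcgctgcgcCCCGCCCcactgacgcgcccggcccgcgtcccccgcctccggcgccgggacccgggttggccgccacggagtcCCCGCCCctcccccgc
Ass1, plus strand, chr2:31470020-31470269: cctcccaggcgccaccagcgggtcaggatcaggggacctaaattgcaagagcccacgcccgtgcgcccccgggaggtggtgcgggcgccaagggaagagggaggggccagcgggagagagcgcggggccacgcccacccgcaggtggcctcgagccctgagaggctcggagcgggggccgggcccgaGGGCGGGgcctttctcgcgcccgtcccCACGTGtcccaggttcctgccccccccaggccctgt
Oat, minus strand, chr7:132576399-132576648: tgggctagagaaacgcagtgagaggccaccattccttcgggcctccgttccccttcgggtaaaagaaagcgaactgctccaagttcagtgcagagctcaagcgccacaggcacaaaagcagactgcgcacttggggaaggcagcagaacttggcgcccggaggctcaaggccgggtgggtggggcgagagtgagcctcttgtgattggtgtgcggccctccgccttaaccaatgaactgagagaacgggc

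All 3 promoters had more G and C than the median window of the promoter table, which also holds noncoding genes. The G and C content was 80% at Odc1, 75.6% at Ass1 and 60% at Oat, against a median of 52.4% over the 32851 windows of that table. The number of CpG pairs was 35, 23 and 14, against a median of 6 and an upper quartile of 16, so Oat lay under that quartile. The GC box matched 4 times at Odc1 and 1 time at Ass1, and 23.4% of all windows hold it. The Ass1 window also had 1 E-box, found in 6.02% of windows. Neither STAT pattern matched at these genes (7.02% of windows for TTCNNNGAA and 5.85% for the one with the wider spacer). Nor did the PU.1 (2.44%), C/EBP (1.74%), AP-1 (6.75%), FOXO (3.17%) or TATA (12.4%) pattern, and none of the 9 matched at Oat. These counts say only which letters stand in the windows.

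At Arg1 (chr10:24915207-24927470, transcribed toward lower coordinates) the regions lay around the gene and none lay over it. The gene body held 0 regions in both libraries, which is so for 16.8% of protein-coding genes. Upstream, within 20 kb of the start, the untreated library listed 3 regions and the IL-4 library 4. Between 1 and 20 kb upstream there were 3 in each, where oriented genes had a median of 1 (quartiles 0 and 2) without and 2 (1 and 3) with IL-4. In that span Nos2 had 5 IL-4 regions, and Ass1 and Odc1 had 4 each. The strongest had its summit 2.96 kb upstream in the untreated library and 2.98 kb upstream in the IL-4 library (chr10:24930061-24930692 and chr10:24930077-24930711). Its summit pileup, the number of fragments stacked at the highest point, was 61 without and 120 with IL-4, and its fold over the background of its own library was 4.16 and 6.69. The ratio of the pileups was 1.97, with an exact binomial 95% interval of 1.43 to 2.72 that covers counting error only. Shared stretches of like untreated pileup (within 10%) had a median ratio of 1.45, and 10.2% of them reached 1.97. In its list this region ranked 4563 of 165968 and 2283 of 226476 by fold. A region of fold 4 or more between 1 and 20 kb upstream was present at 6.33% of oriented genes without IL-4 and 15.9% with it. Such a region may sit at another gene's start, but no other protein-coding gene had an end within 1 kb of the Arg1 one. It was stronger than any region within 1 kb of the Arg1 start, as some upstream region was at 41.5% and 45.2% of oriented genes. It spanned the adjoining ends of 2 long noncoding RNA genes, Gm40616 and Gm36228.

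Just beyond it, a weaker region showed the larger relative difference. Its summit lay 4.32 kb upstream without IL-4 (chr10:24931621-24931975) and 4.19 kb upstream with IL-4 (chr10:24931439-24931921). The pileup was 34 and 84, a ratio of 2.47 (1.64 to 3.80). Among the 41310 stretches shared by both libraries with an untreated pileup within 10% of 34, the median ratio was 1.22 and the quartiles were 1.06 and 1.43. Of those stretches, 0.700% reached 2.47. The third upstream region, 13.4 kb from the start without IL-4 and 13.5 kb with it, had pileups of 29 and 33, so its ratio of 1.14 (0.670 to 1.94) did not exceed counting error.

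The fourth upstream region of the IL-4 library lay nearest to the gene. It ran over chr10:24928177-24928431 with its summit 0.853 kb before the start, a pileup of 53 over a local background of 17.6 and a fold of 2.90, within Gm40616. No untreated region overlapped it. The weakest regions of the untreated list had a pileup of 23, so a lower summit there would not have been listed. Past the other end of Arg1, inside Med23 (a Mediator subunit gene), both libraries had regions about 16 and 24 kb from the Arg1 start. Their pileups were 54 and 103 for the nearer one and 45 and 78 for the farther one. A further Med23 region, with a pileup of 54 and a fold of 3.26, was in the IL-4 library alone.

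**Figure D1:**
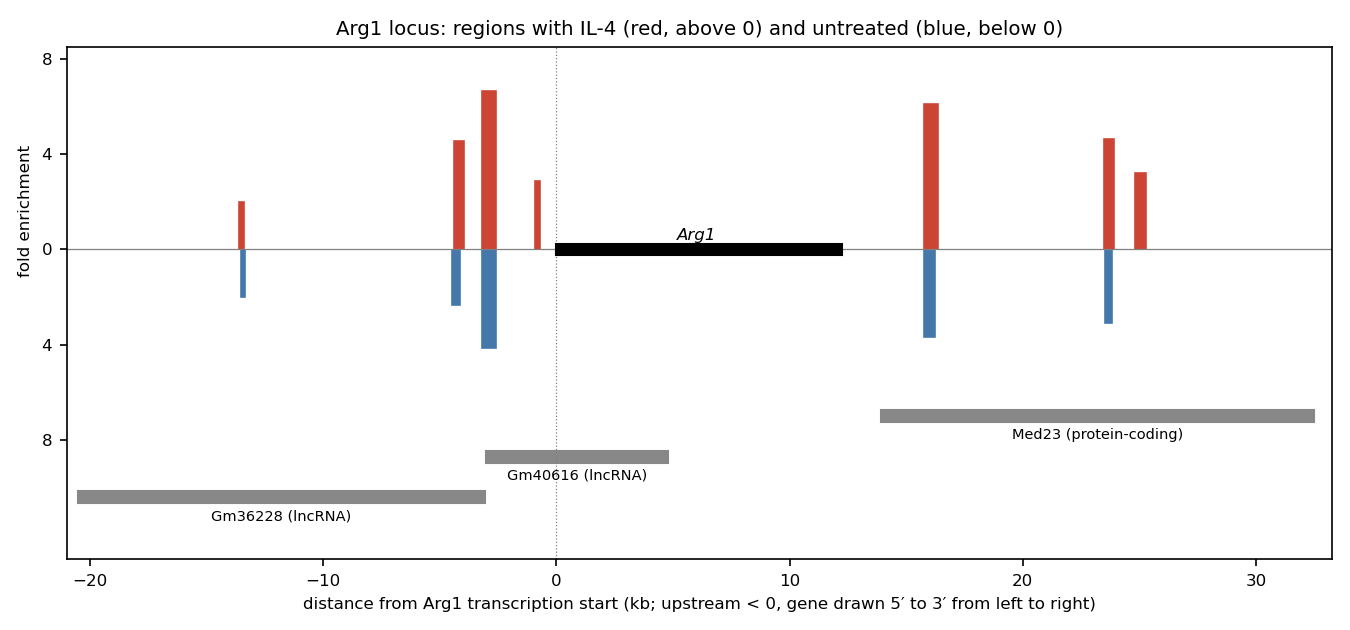
Regions around Arg1, drawn by distance from the transcription start in kb (horizontal axis, upstream below 0) against the authors' fold enrichment (vertical axis), IL-4 in red above 0 and untreated in blue below 0; black and grey bars are gene bodies. The gene body is empty in both libraries, and the tallest upstream bars, 2.96 and 2.98 kb before the start, reach folds of 4.16 and 6.69.

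Slc7a2 (chr8:40862341-40922070), the CAT2 arginine transporter gene, had the largest difference between the libraries among the shared regions of the 9 genes. At its start the untreated library listed 2 short regions, chr8:40862025-40862514 and chr8:40862654-40862920, with pileups of 39 and 38 and folds of 2.68 and 2.62. In the IL-4 library a single region of 1205 bp, chr8:40861844-40863048, ran across both, with a pileup of 130 and a fold of 7.77. The ratio to the higher untreated pileup was 3.33 (2.31 to 4.90). Stretches over gene starts had higher ratios than others, so starts are the comparison used. Over 5413 shared stretches that cover the start of an oriented gene, the median ratio was 1.65 (quartiles 1.46 and 1.86), against 1.26 (1.09 and 1.51) over all 101868 shared stretches. Of the 890 start stretches with an untreated pileup within 10% of 39, 0 reached the ratio of Slc7a2, and of all 24135 like stretches 0.0290% did. Its background was the library's constant background in both maps, 13.91 and 15.87 fragments. Slc7a2 is singled out here after its values were seen.

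The region upstream of Slc7a2 was also higher with IL-4. Its summit lay 11.2 kb before the start in both libraries (chr8:40851000-40851261 untreated, chr8:40850912-40851455 with IL-4), with pileups of 35 and 75 and folds of 2.41 and 4.51. The ratio of 2.14 (1.42 to 3.30) was reached by 2.61% of shared stretches of like untreated pileup. Inside the gene, 28.2 kb from the start, the pileups were 32 and 33, a ratio of 1.03 (0.615 to 1.73). Another weak region of the gene body, with a pileup of 34, was in the IL-4 library alone. The Slc7a2 window held 4 regions in each library. More regions with IL-4 than without were listed at 7 of the 9 genes, against 75.0% of protein-coding genes, the exceptions being Slc7a2 and Asl.

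Arg2 (chr12:79130788-79156301), the mitochondrial arginase gene, had a region over its start, which Arg1 had not. The start region (chr12:79130557-79131043 untreated, chr12:79130524-79131016 with IL-4) had pileups of 38 and 67, a ratio of 1.76 (1.17 to 2.70). Starts of like untreated pileup had a median of 1.65, and 37.6% of 858 reached that of Arg2. A stronger region lay just inside the gene, with its summit 1.49 kb after the start without IL-4 and 1.496 kb with it. There the pileups were 52 and 93 and the folds 3.55 and 5.57. Upstream of Arg2 the regions were weak, with folds of 1.94 and 2.37 at the 1 shared site, 5.29 kb from the start. The IL-4 library alone listed 2 regions 10.3 and 10.8 kb into the gene, over the noncoding gene Gm40462, with folds of 3.26 and 2.79. The widest Arg2 region belonged to the start of its neighbour Vti1b, with pileups of 49 and 94.

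Nos2 (chr11:78920787-78960226), the inducible nitric oxide synthase gene, gained the most regions of the 9 genes. The untreated library listed 2 in the window and the IL-4 library 20, of which 11 lay over the gene body. A gain of 18 or more regions was found at 2.17% of protein-coding genes, and 10 times as many regions or more at 0.420% of genes with an untreated region in the window. With the IL-4 list shortened to the length of the untreated list, the number at Nos2 was 10. The 2 shares above were not recounted at that length. Most of the regions were weak: 14 of the 20 had a fold under 2.1, the median fold was 1.96, and 5 had a −log10 q of 5 or more. For 14 of the 20 the caller had raised the local background above the constant one, up to 20.9 fragments.

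The strongest Nos2 region lay over the start (chr11:78920470-78920917), with a summit 27 bp before it, a pileup of 56 and a fold of 2.98. It was in the IL-4 library alone. The nearest untreated region lay 4.21 kb upstream, with a pileup of 33, and its IL-4 counterpart there had 54, a ratio of 1.64 (1.04 to 2.61). No region at Nos2 reached a fold of 3 in either library, while the Arg1 region about 3 kb upstream passed it in both. The regions past the finish of Nos2 lay at or in Lgals9, a galectin gene.

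Ass1 (chr2:31470270-31520670) had 11 regions without and 15 with IL-4 in its window, few of them strong. Its start region (chr2:31470052-31470626 untreated, chr2:31469855-31470470 with IL-4) had pileups of 41 and 86, a ratio of 2.098 (1.43 to 3.12), and folds of 2.78 and 4.05. The local background there was 14.1 fragments without and 20.5 with IL-4. Starts of like untreated pileup had a median ratio of 1.67, and 13.2% of them reached that of Ass1. All 15 IL-4 regions at Ass1, and 5 of the 11 untreated ones, were set against such a raised background. At 10.05 and 10.04 kb upstream, within 1 kb of the end of Hmcn2, the pileups were 34 and 71. Of the 6 untreated regions that no IL-4 region overlapped among the 9 genes, 3 were at Ass1, 2 at Oat and 1 at Arg2, with folds of at most 2.15.

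Asl (chr5:130011258-130024381), which completes the rebuilding of arginine, had a region over its higher-coordinate end, taken here as its start. Its difference was the smallest of the 7 start regions. The pileups were 57 and 90, a ratio of 1.58 (1.12 to 2.24), below the median of 1.65 for starts of like untreated pileup. The strongest regions of the Asl window were at the neighbouring gene Gusb, with pileups of 85 and 132 at that gene's start. Its window held 6 regions without and 5 with IL-4, and every region there was shared.

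Odc1 (chr12:17544808-17551502), which encodes the first enzyme of polyamine synthesis, carried the region of highest fold among the 9 windows in each library. It covered the start (chr12:17544184-17545104 untreated, chr12:17544281-17545110 with IL-4), the GC-rich stretch printed above, with pileups of 85 and 169 and folds of 5.58 and 9.0. By fold it ranked 1645 of 165968 and 599 of 226476. The ratio was 1.99 (1.52 to 2.61), against a median of 1.64 at 489 starts of like untreated pileup, of which 7.57% reached it. No upstream region of Odc1 passed a fold of 3 in either library. In the IL-4 library 6 further weak regions appeared around Odc1, with folds of 1.84 to 2.31.

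Srm (chr4:148591513-148594619), the spermidine synthase gene, and Oat (chr7:132557475-132576398) also had the region of highest fold of their windows over the start. At Srm the pileups were 52 and 104 (chr4:148591233-148591706 and chr4:148591166-148591841) and the folds 3.55 and 5.20. At Oat they were 67 and 134 (chr7:132575661-132576593 and chr7:132575620-132576684) and the folds 4.56 and 7.23. Both ratios were 2.0, with intervals of 1.42 to 2.85 and 1.48 to 2.72. Starts of like untreated pileup had medians of 1.65 and 1.67, and 13.7% and 11.7% of them reached that ratio. Past the finish of Oat, 24.5 kb from its start, another region had the same untreated pileup as the start, 67, and 90 with IL-4, a ratio of 1.34 (0.968 to 1.87). Its fold was 4.38 without and 3.97 with IL-4. The IL-4 library listed 11 regions around Srm against 4, most of them in its neighbour Masp2.

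**Figure D2:**
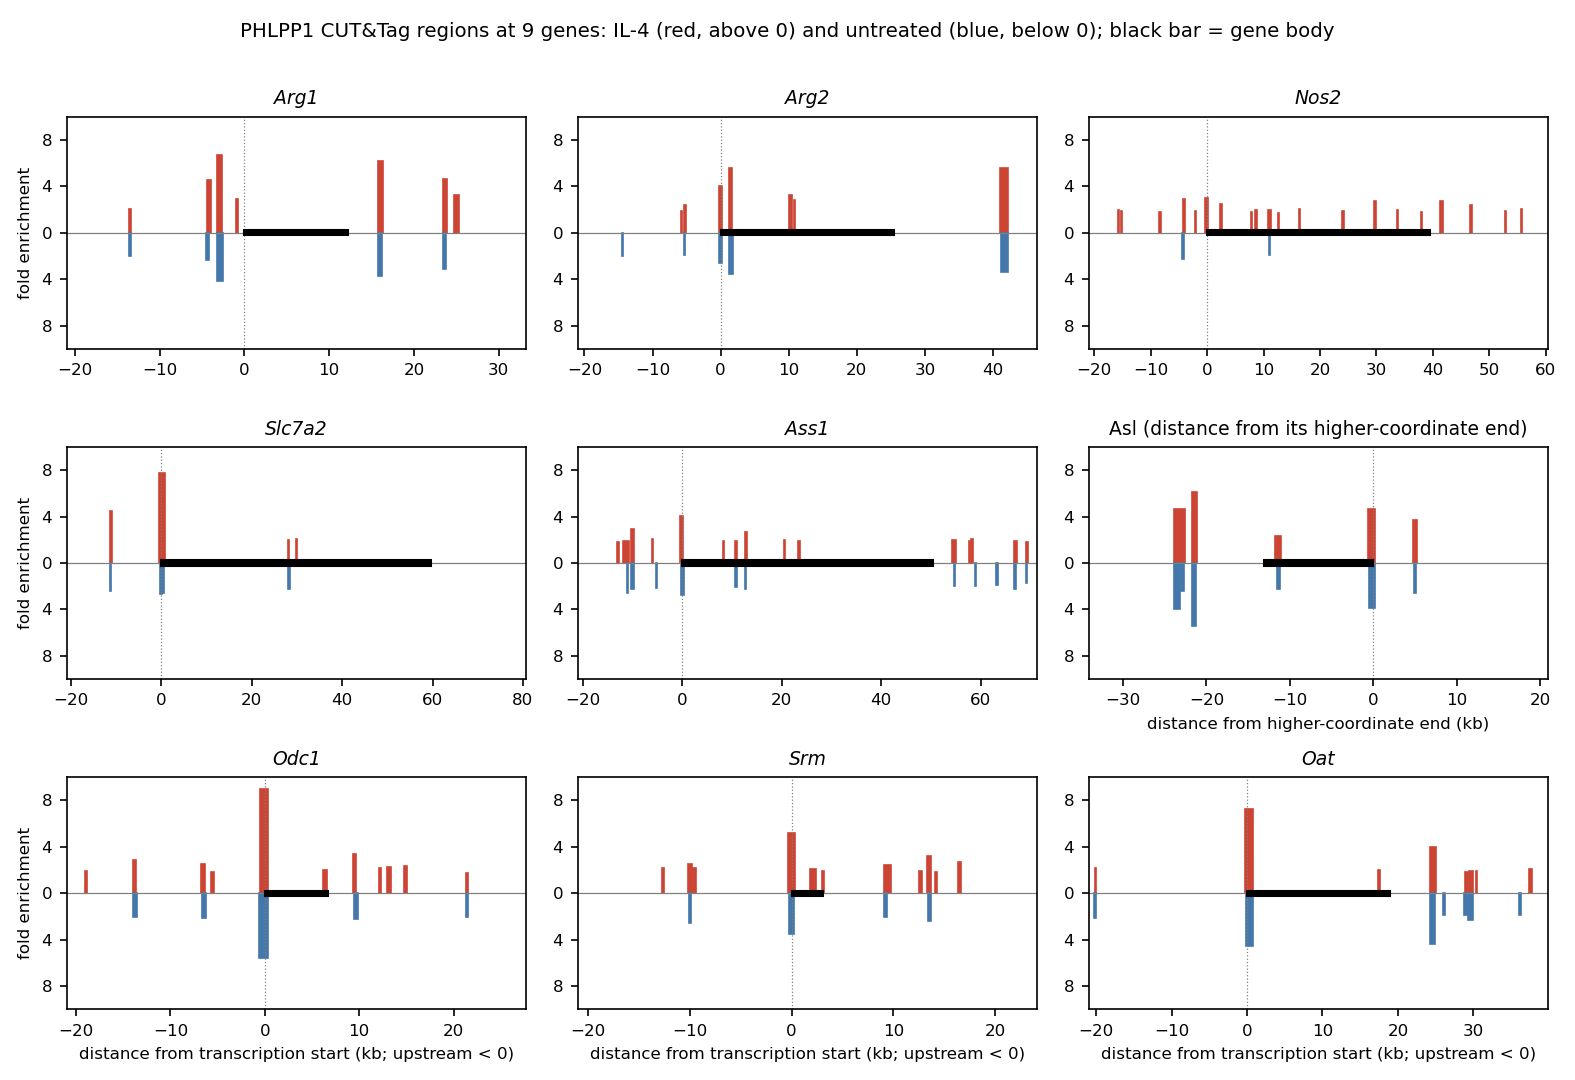
Every region over the 9 genes and 20 kb each side, by distance from the transcription start in kb (for Asl, from its higher-coordinate end) against the authors' fold enrichment, IL-4 in red above 0 and untreated in blue below 0; black bars are gene bodies. Odc1, Srm, Oat, Slc7a2 and Ass1 peak at the start in both libraries. Arg1 peaks upstream with an empty gene body, and Nos2 has 20 low red regions against 2 blue ones.

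Set side by side, the start regions were higher with IL-4 by more than counting error at every gene that had one in both libraries. The 7 ratios ran from 1.58 to 3.33 with a median of 2.0, and each interval lay above 1. Over all 5413 shared stretches at starts the median was 1.65 (quartiles 1.46 and 1.86). How many of those had an interval above 1 was not counted. The constant background, which grows with depth, was 1.14 times as high in the IL-4 library, and the part of depth in the ratios was not tested. The Asl interval began at 1.12, under that value. The local background rose more than the constant one at some starts. Set against the background ratio of its own region, the interval began lower at Asl (1.12 against 1.34) and at Ass1 (1.43 against 1.45). At the rest of the 7 it began higher. At 6 of the 7 genes the ratio was above the median of starts of like untreated pileup, and at Asl it was below.

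**Figure D3:**
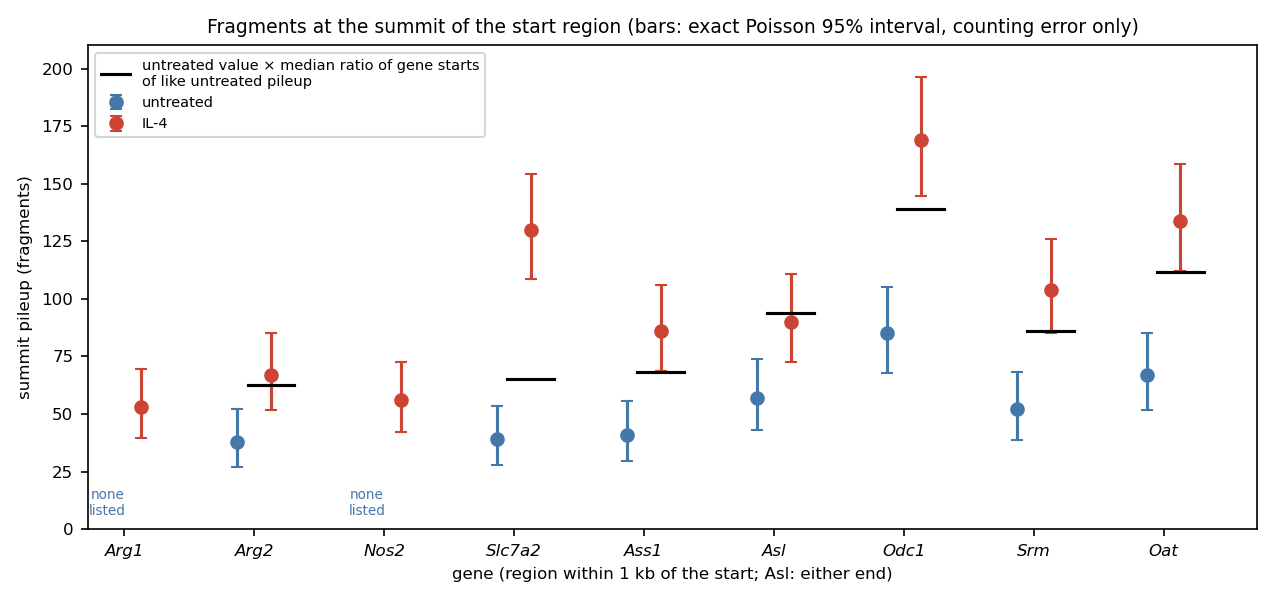
Fragments at the summit of the strongest region within 1 kb of each gene's start (vertical axis) in the untreated (blue) and IL-4 (red) library, with exact Poisson 95% intervals for counting error only; the black line is the untreated value times the median ratio of gene starts of like pileup. Slc7a2 rises from 39 to 130, and its IL-4 point stands farthest above its line, while Asl at 90 lies just under its own.

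Over all positions, 41 stretches of the 9 windows held regions of both libraries. The IL-4 pileup was higher in 40 of them, and 85.2% of all shared stretches had that direction. By fold over each library's own background, 32 of the 41 were higher with IL-4 and 9 lower, against 62.6% higher genome-wide. The pileup ratio was above the background ratio of 1.14 in 36 of 41, against 67.7% genome-wide. The median ratio was 1.60 over the 41 and 1.26 genome-wide. The counting interval stood above 1 in 22 of the 41, against 22.8% genome-wide. Compared with stretches of like untreated pileup, 22 of the 41 lay above the upper quartile and 3 below the lower one. The 41 are also unlike the genome-wide set. They hold 7 start stretches of the 9 genes, while 5413 of the 101868 genome-wide cover the start of an oriented gene, and starts had higher ratios. An untreated fold of at least 3 was reached by 12 of the 41 and by 14929 genome-wide. Matching on untreated pileup did not match position, and shares over gene windows alone were not counted. The 41 are not independent, since stretches of 1 window share a locus and some belong to neighbouring genes.

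**Figure D4:**
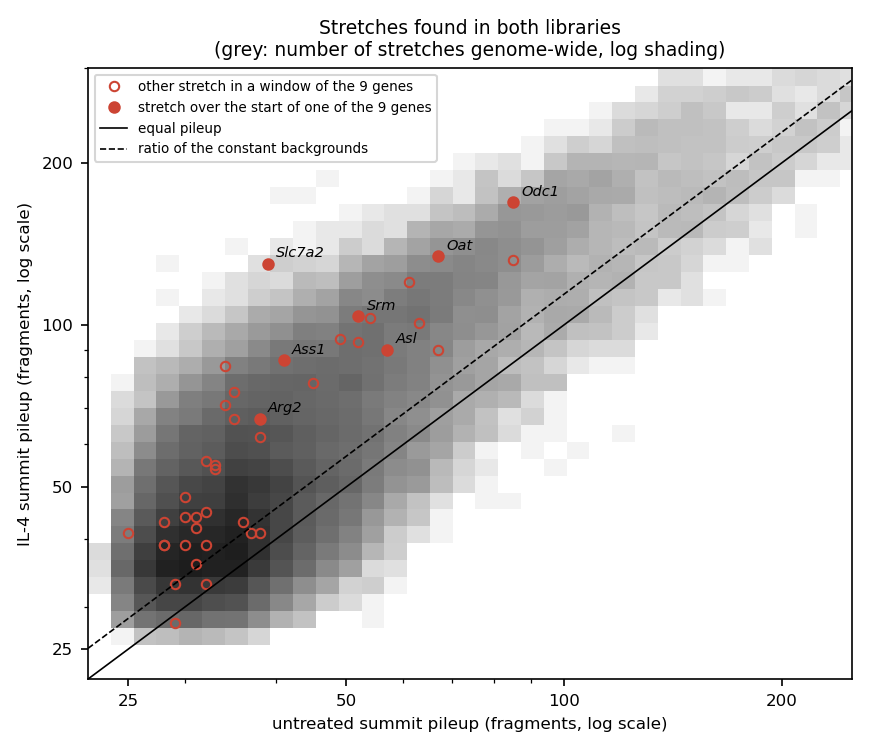
Summit pileup in the untreated (horizontal) and IL-4 (vertical) library, both on log scales, for stretches found in both libraries; grey shading counts all such stretches, red circles are the 41 of the 9 genes and filled ones cover a start. Slc7a2 (39, 130) stands at the upper edge of the grey cloud, and the 1 circle under the line of equal pileup is a weak region downstream of Odc1 (29, 28).

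Regions found in 1 library alone were counted next. Of the 88 IL-4 regions, 47 (53.4%) overlapped no untreated region, against 54.4% of the whole list and 55.2% of regions near any protein-coding gene. Of the 49 untreated regions, 6 (12.2%) overlapped no IL-4 region, against 37.1% and 31.7%. With the lists at equal length, 26 of 61 IL-4 and 12 of 49 untreated regions of the windows were in 1 library alone. The shares over whole lists of that length were not counted. Among the 47, 18 lay at Nos2, 7 at Ass1, 7 at Srm and 6 at Odc1. Of the 47, 2 reached a fold of 3, in Med23 next to Arg1 and inside Arg2, and 9 had a −log10 q of at least 5, against 3.13% and 16.2% of all single-library IL-4 regions. Of the 6, 0 did either, against 0.237% and 2.59% of single-library untreated regions. By length, the median of the 9 windows was 9.57 regions per 100 kb without and 13.6 with IL-4. Over all protein-coding genes the medians were 6.61 (quartiles 3.31 and 11.0) and 11.9 (5.78 and 18.8), so both medians of the 9 lay between the quartiles.

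Beyond these genes, 36 others of arginine and polyamine metabolism were looked up at their ends. Without IL-4, 24 of them had a region within 1 kb of either end, and with IL-4, 28, against 57.5% and 70.4% of protein-coding genes. Those of highest fold are named here. Eif5a, whose protein carries the spermidine-derived residue hypusine, had folds of 7.27 and 9.10. Dohh, which completes hypusine, had 5.83 and 9.19, the oxidase gene Paox 5.81 and 6.51, and the antizyme inhibitor gene Azin1, which spares ornithine decarboxylase, 5.77 and 7.90. The antizyme gene Oaz1 had 5.70 and 7.55. The 4 genes with an end region in the IL-4 library alone were Ddah2 (2.61), Sat2 (2.43), Ddah1 (2.16) and Dhps (2.13), against 16.0% of protein-coding genes, and there were 0 in the untreated library alone, against 3.06%. With a −log10 q of at least 5 the numbers were 16 and 24 of the 36, against 32.9% and 51.7%. The urea cycle genes Cps1, Otc and Nags, the transporters Slc7a7 and Slc25a2, and Agmat, Amd2 and Sms had none in either. At 22 of the 36 genes the strongest end regions of both libraries were 1 shared stretch. The IL-4 pileup was higher at 22 of the 22, against 97.2% of the 10554 protein-coding genes of that kind. The median pileup ratio of 1.67 lay between the quartiles over those genes, 1.39 and 1.83, whose median was 1.60. By fold over each library's own background, Slc7a1 (3.08 without and 2.92 with IL-4) and Pts (5.30 and 4.95) were lower with IL-4. The rest of the 22 were higher, and the share by fold over the 10554 genes was not counted.

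The cell type was checked at marker genes in the same way. Of 12 alveolar macrophage markers, 11 had an end region in each library, and Chil3 had none, beside the 57.5% and 70.4% of all protein-coding genes. Of 6 markers each, the untreated and IL-4 libraries had such regions at 1 and 4 for lymphocytes, 2 and 4 for neutrophils, 3 and 6 for lung epithelium, 2 and 4 for endothelium and fibroblasts, and 2 and 2 for neurons. With a −log10 q of at least 5, alveolar macrophage markers numbered 4 and 10 of 12 in the untreated and IL-4 lists, beside 32.9% and 51.7% of all protein-coding genes. By the same limit the numbers of 6 were 0 and 1 for lymphocytes, 1 and 3 for neutrophils, 0 and 2 for epithelium, 0 and 4 for endothelium and fibroblasts, and 0 and 2 for neurons. The part of other cells in the results above was not tested.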

How the data were processed

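Regions were read from 1 narrowPeak list per library. Per the submitters' processing notes, the build was mm10 and the tools included MACS2 2.2.7.1, Bowtie 0.12.8 and DiffBind, without roles. Settings and any control: not given in the sources used here. Each deposited fold is the authors' ratio of summit pileup to the background of the same library, and the deposited −log10 p and −log10 q refer to that background. The integer score and the summit offset in bp are also as deposited. From fold and −log10 p, each summit pileup and background was recovered, since MACS adds 1 to both. Recovered pileups were whole numbers within 0.05 for 100% of regions, which was also tested on simulated data. The depth in reads is unknown. Pileups were not scaled between libraries, and fragments are not independent molecules, so intervals cover counting error only.

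Overlap needed 1 bp, and overlapping regions were merged into stretches, each with its highest pileup per library. Genes came from RefSeq GRCm38.p6. Orientation came from the RefSeq promoter table for 17492 genes, and from general knowledge for Arg1, Arg2, Nos2, Slc7a2 and Srm. That table lacks Asl and part of the listed genes, so either end was used for Asl, the 36 further pathway genes and the markers in place of the planned start. Like stretches were matched on untreated pileup (within 10%) in place of the planned fold. Exons, introns and UTRs were not analysed here, and no genome was used, so region sequences were not searched. All 9 genes, their strongest and nearest regions and their neighbours are named; of 36 further pathway genes, the 4 of highest fold per library, those in 1 library alone and those in neither. The genes and lists were chosen with earlier results of these data known. Alternatives changed region limits, list length, windows, overlap and scaling. Python 3.11.15, numpy 2.4.6, pandas 2.3.3, scipy 1.17.1 and matplotlib 3.10.9 were used.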

Additional observations from a re-analysis of the deposited data

How the results depend on the processing

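Of 54 alternative values, 28 stayed within the limits of no change (1.5 times for a number, the counting interval for the ratio) and 26 did not. Stricter limits and shorter flanks leave fewer regions by construction. Some unchanged values were fixed in advance too, since only the IL-4 list was cut to reach equal length. A −log10 q of at least 5 left 14 untreated and 36 IL-4 regions in the windows, 0 and 22 of them in 1 library alone, and 1 untreated region upstream of Arg1. A fold of at least 3 left 12 and 22 regions, 0 and 10 in 1 library alone, 1 and 2 upstream of Arg1, and 4 genes with an untreated start region. Both lists were cut before the overlap, so a region whose partner fell under the limit counted as alone. Against the full untreated list, 9 IL-4 regions of that q and 2 of that fold had no overlap. The shares over the whole cut lists were not counted. With lists of equal length, 12 of 49 untreated and 26 of 61 IL-4 regions were in 1 library alone. A flank of 5 kb gave 21 and 43 regions, 0 and 23 in 1 library alone. A flank of 50 kb gave 86 and 151, 18 and 85 in 1 library alone, and 8 IL-4 regions upstream of Arg1. With 50% reciprocal overlap, 17 of the 49 untreated and 56 of the 88 IL-4 regions were in 1 library alone. Shares over the whole lists at equal length or with this overlap rule were not counted. The pooled pileup ratio of the shared stretches was 1.68, but 1.47 after division by the ratio of the constant backgrounds and 1.27 after division by the median of stretches of like untreated pileup. The number of genes with an IL-4 start region was 9 under every alternative run except a fold of at least 3, where it was 7. No paired analysis was possible because each group held 1 library. Pileups under 23 untreated and 26 with IL-4 were never listed.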
